A study of Homo sapiens with 12 samples.

Results

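The genes of the distal end of the long arm of chromosome 8, from MYC outwards, were compared between carfilzomib-resistant myeloma cells and their parents and between the parental lines. The members were chosen by position: genes that have their own probe set (a group of short probes for a transcript) and start beyond MYC on chromosome 8, except NDRG1, RPL8 and CYC1. They were 127 of 19775 genes measured and of 715 on chromosome 8, and were read by 238 probe sets. The region was selected on measured values, because chromosome 8 genes and a block in band 8q24.3 stood higher on the KMS-11/Cfz arrays than on the KMS-11 arrays. That difference is therefore given as a description, and tests are given for the other comparisons.

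KMS-11 and KMS-34 are established lines of human multiple myeloma, a cancer of plasma cells. From each a derivative (KMS-11/Cfz, KMS-34/Cfz) had been adapted to 12 nM carfilzomib, an inhibitor of the proteasome. The derivatives had grown without the drug for 1 week, the parents had never been selected in it, and the labels give 4% fetal bovine serum for all 4 groups. RNA of each group was measured on 3 Affymetrix arrays, 12 arrays in all. Each derivative is 1 selected culture of 1 line, and no source says that its 3 arrays came from separate cultures, so the p-values cover the spread between arrays, which may be technical.

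MYC, a transcription factor that drives growth and protein synthesis, lies in band 8q24, and rearrangements around it are a common event in myeloma. The stretch between MYC and the chromosome end first holds long genes and long non-coding RNAs, among them PVT1. Further out follow a cluster of LY6 genes, most of which encode small surface proteins anchored in the membrane by a lipid. Then comes the gene-dense outer part of band 8q24.3. That band holds genes for metabolism, RNA processing, DNA repair and the heat shock response, and at its end a row of zinc finger genes.

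All gene values are on the log2 scale. The deposited table was centred for each probe set over the 12 arrays, so a value tells how an array differs from the others and not how strongly a gene is expressed. Myeloma identity could therefore not be checked as a level of plasma cell markers. A gene's value is the mean of its probe sets, a difference is between means of 3 arrays with its standard error (SE), and a gene is called higher or lower where the Benjamini-Hochberg adjusted p of limma over all 19775 genes is under 0.05. Correlations between arrays of a group ran from 0.788 to 0.956, and KMS-34/Cfz replicate 1 stood furthest from its group, at 0.788 and 0.837. In these bulk samples, more cells with a transcript and more transcript per cell cannot be told apart.

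The members' order along the chromosome was divided into 5 consecutive blocks. Block 1 ran from PVT1 to KHDRBS3 (26 genes), block 2 from FAM135B to LY6D (26), block 3 from GML to ZNF623 (25), block 4 from LINC02878 to ADCK5 (25) and block 5 from CPSF1 to C8orf33 (25). No genome build is named for the files, so only the order of starts in the human RefSeq annotation (GRCh38.p14) was used. Of the members, 102 encode proteins and 25 do not.

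Many distal 8q24 genes were higher in KMS-34 than in KMS-11, and the share rose towards the chromosome end. Of the 127 members, 56 were called higher (44.1%), beside 21.6% of all genes, and 9 were called lower (7.09%), beside 20.5% of all genes. The median difference was 0.12, against 0.02 over all genes and 0.03 over the 585 chromosome 8 genes up to and including MYC. The differences ran from -0.94 for SLA to 4.38 for LY6E. This comparison shares the KMS-11 arrays with the one that chose the region. Low values on these arrays, also in 8q24.3, raise both differences, so the choice favoured higher values in KMS-34 here.

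The share called higher was 7.69% in block 1, 34.6% in block 2, 44.0% in block 3, 60.0% in block 4 and 76.0% in block 5. The median differences of the same blocks were -0.01, 0.08, 0.13, 0.37 and 0.63. Protein-coding members were called higher in 51.0% of cases and the others in 16.0%. Shares by block were not counted for protein-coding members alone, so position and the make-up of the blocks cannot be told apart. Blocks 4 and 5 lay above each of the 12 windows of up to 50 genes between the other chromosome end and MYC. In these windows at most 46.0% were called higher and the median was at most 0.16, both in window 11 before MYC. Blocks 1, 2 and 3 did not exceed that window, nor did the members as a whole, at 44.1% and 0.12. Over the 127 genes, the order from MYC and the difference had a Spearman correlation of 0.47, a description across genes that share the same 12 arrays and are not independent.

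**Figure D1:**
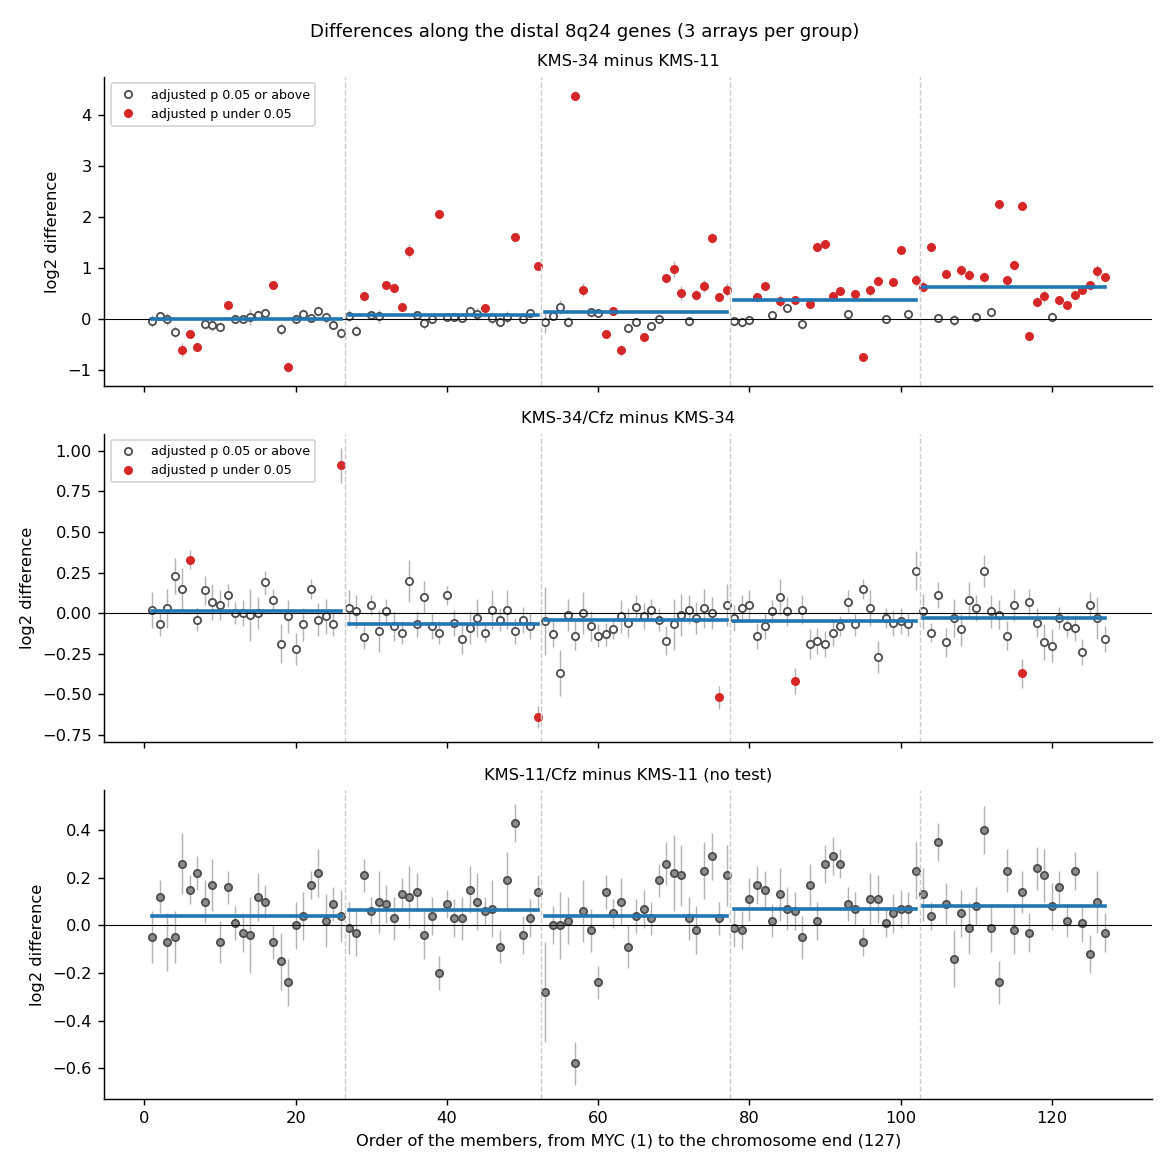
Log2 difference of each member (vertical axes, each with its own scale) in order from MYC to the chromosome end, for KMS-34 minus KMS-11, KMS-34/Cfz minus KMS-34 and KMS-11/Cfz minus KMS-11. Points are differences between means of 3 arrays, bars are SE, dashed lines part the 5 blocks, blue lines are block medians and red points have an adjusted p under 0.05; in the top panel the block medians run from -0.01 to 0.63, and in the others they stay between -0.06 and 0.08.

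The single arrays parted in the same way. In block 5, the median over the genes of the value minus the KMS-11 mean was 0.53, 0.74 and 0.61 on the KMS-34 arrays (replicates 1, 2 and 3), and -0.01, 0.07 and -0.03 on the KMS-11 arrays. It was 0.38, 0.69 and 0.74 on the KMS-34/Cfz arrays, the lowest being replicate 1, and 0.07, 0.05 and 0.05 on the KMS-11/Cfz arrays. The KMS-34 and KMS-34/Cfz arrays thus lay above all arrays of the other line. In block 1 the KMS-34 arrays stood at -0.04, -0.06 and -0.01 and overlapped the KMS-11 arrays, at -0.02, -0.02 and 0.02.

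Comparing KMS-34/Cfz with KMS-11/Cfz, which uses none of the parental arrays but shares the KMS-11/Cfz arrays with the comparison that chose the region, was added after the data had been seen. Here 45 members were called higher (35.4%), beside 22.5% of all genes, and 11 lower (8.66%), beside 20.8%. By block the shares called higher were 15.4%, 23.1%, 36.0%, 44.0% and 60.0%, with median differences of -0.02, 0.01, 0.00, 0.11 and 0.40.

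**Figure D2:**
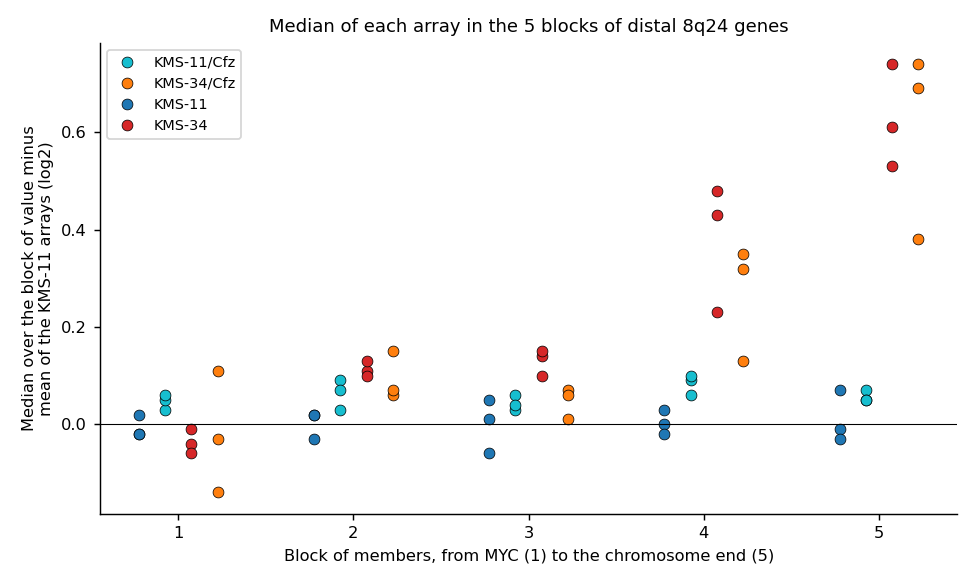
Median over the genes of each block of the value minus the mean of the KMS-11 arrays (vertical axis, log2) for each of the 12 arrays (points, coloured by group), by block from MYC to the chromosome end (horizontal axis). In block 5 the KMS-34 arrays lie at 0.53 to 0.74 and the KMS-34/Cfz arrays at 0.38 to 0.74, above the KMS-11 and KMS-11/Cfz arrays, which lie at -0.03 to 0.07.

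LY6E, a LY6 surface protein induced by interferon, had the widest gap of all members. Its values were -3.24, -3.37 and -3.34 in KMS-11 and -4.12, -3.79 and -3.77 in KMS-11/Cfz, against 1.02, 1.07 and 1.10 in KMS-34 and 0.79, 0.91 and 1.06 in KMS-34/Cfz. The lines did not overlap, and KMS-34 was 4.38 (SE 0.09) above KMS-11, a 20.8-fold difference (limma, adjusted p = 2.4e-13). LY6D, the last gene of block 2, was 1.03 (SE 0.07) higher in KMS-34 (limma, adjusted p = 5e-08). The other 7 measured LY6 family genes (PSCA, LY6K, SLURP1, LYNX1, GML, LY6H and GPIHBP1) were not called. The family thus had 2 of 9 higher (22.2%), close to the 21.6% of all genes, and 0 lower, beside 20.5% of all genes.

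PTP4A3, a phosphatase tied to cell migration, was read by 3 probe sets. Its values were -0.60, -0.44 and -0.59 in KMS-11 and -0.81, -0.70 and -0.73 in KMS-11/Cfz, against 1.44, 1.60 and 1.51 in KMS-34 and 1.27, 1.42 and 1.5 in KMS-34/Cfz. Both KMS-34 groups lay above both KMS-11 groups, and the parental difference was 2.06 (SE 0.07; limma, adjusted p = 3.9e-11). Among the 12 genes listed for adhesion, polarity and signalling, 6 were higher and 3 lower, where 21.6% and 20.5% of all genes were. The others higher were PPP1R16A (0.82), a regulatory subunit of protein phosphatase, SHARPIN (0.44), a part of the linear ubiquitin ligase, SCRIB (0.42), a polarity scaffold, PLEC (0.35), a linker of the cytoskeleton, and PTK2 (0.24), the focal adhesion kinase. Lower were ASAP1 (-0.55), RHPN1 (-0.36) and ARHGAP39 (-0.34), all of which act on or with small GTPases. PLEC lost its call without KMS-11 replicate 1 (adjusted p = 0.066), KMS-11 replicate 3 (0.058) or KMS-34 replicate 3 (0.079), and PTK2 without KMS-34 replicate 1 (0.059), in the limma fit.

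The list named for enzymes and transporters of metabolism, which also holds TG, had 8 of 15 genes higher (53.3%) and 0 lower. Again 21.6% of all genes were higher and 20.5% lower, as for each list that follows. PYCR3, an enzyme of proline synthesis, stood at -0.79, -0.66 and -0.64 in KMS-11 and -0.30, -0.44 and -0.46 in KMS-11/Cfz, against 0.78, 0.89 and 1.04 in KMS-34 and 0.69, 0.94 and 1.07 in KMS-34/Cfz. The lines did not overlap, and the parents differed by 1.59 (SE 0.10; limma, adjusted p = 8e-09). GPAA1, which attaches lipid anchors to surface proteins, was higher by 1.46 (SE 0.08), the zinc importer SLC39A4 by 1.42 (SE 0.06), the riboflavin transporter SLC52A2 by 1.35 (SE 0.08) and DGAT1, an enzyme of triglyceride synthesis, by 0.75 (SE 0.10). ADCK5 (0.77), GFUS (0.42), an enzyme of GDP-fucose synthesis, and OPLAH (0.30), which recycles 5-oxoproline, completed the 8. NAPRT (-0.05), GPT (0.13), SLC45A4 (0.08) and ST3GAL1 (0.02) were not called. Nor were CYP11B1, CYP11B2 and TG, known from the adrenal gland and the thyroid.

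In RNA processing, 4 of 6 genes were higher (66.7%) and 0 lower. They were EXOSC4 (1.42, SE 0.08), a subunit of the RNA exosome, PUF60 (0.65, SE 0.08), a splicing factor, CPSF1 (0.63, SE 0.11), a subunit of the cleavage and polyadenylation machinery, and AGO2 (0.61, SE 0.09), the slicer of RNA interference. EEF1D, a subunit of elongation factor 1, was 0.47 (SE 0.10) higher, and whether its 4 probe sets also read related copies was not tested. That was also not tested for other members read only by probe sets that can match several transcripts. Among these were GPAA1, SLC39A4, SLC52A2, DGAT1, OPLAH, PUF60, CPSF1, HGH1, SHARPIN, VPS28 and GSDMC. BOP1, a ribosome assembly factor of the same stretch, was not analysed here, as no probe set names it alone.

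All 4 genes listed as stress factors and chaperones were higher. HSF1, the main transcription factor of the heat shock response, stood at -0.04, -0.09 and -0.08 in KMS-11 and 0.05, 0.09 and -0.03 in KMS-11/Cfz, against 0.37, 0.57 and 0.54 in KMS-34 and 0.25, 0.54 and 0.80 in KMS-34/Cfz. The KMS-34 values lay above all KMS-11 values, and the difference was 0.56 (SE 0.11; limma, adjusted p = 0.00066). MAF1, a repressor of RNA polymerase III, differed by 0.54 (SE 0.06), HGH1 by 0.49 (SE 0.07) and GRINA by 0.37 (SE 0.08).

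Of 6 genes listed for DNA replication, repair and chromatin, 4 were higher (66.7%) and 0 lower. TONSL, which acts in the repair of stalled replication forks, was higher by 0.89 (SE 0.09), the helicase RECQL4 by 0.76 (SE 0.09) and CHRAC1, a histone-fold protein, by 0.66 (SE 0.08). The fourth was MROH6 (0.51, SE 0.13), whose role is not stated here, so its place in the list rests on no stated function. TOP1MT (-0.06) and PARP10 (0.22) were not called. The list named for trafficking and ubiquitin, which also holds PHF20L1, had 5 of 8 genes higher (62.5%). They were DENND3 (1.33), FBXL6 (0.72), PHF20L1 (0.67), SHARPIN and COMMD5 (0.27). Single probe sets of PHF20L1 ran from 0.13 to 1.86, and those of FBXL6 from -0.04 to 1.48. VPS28, a subunit of the ESCRT-I sorting complex, and TRAPPC9, of the TRAPP tethering complex, had differences of 0.01 and 0.07 and were not called.

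The list of zinc finger genes, which also holds the transposon-derived DNA-binding genes JRK and TIGD5, had 10 of 14 genes higher (71.4%) and 1 lower (7.14%). ZNF252P (0.66), TIGD5 (0.64) and ZNF623 (0.57) were among the higher ones, and ZFP41 (-0.30) was the lower one. ZNF251, at 0.33, lost its call without KMS-34 replicate 3 (limma, adjusted p = 0.051). Genes known mainly from nervous or other tissues had 1 of 14 higher (7.14%), the potassium channel KCNK9 (0.44, SE 0.07), and 0 lower. Protein-coding members were called higher in 51.0% of cases and the others in 16.0%, a count without a test.

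SLC33A2 and C8orf82 lie in block 5 and had the widest gaps there. SLC33A2 stood at -1.72, -1.49 and -1.55 in KMS-11 and -1.84, -1.83 and -1.81 in KMS-11/Cfz, against 0.64, 0.64 and 0.72 in KMS-34 and 0.45, 0.73 and 0.80 in KMS-34/Cfz. The lines did not overlap, with a parental difference of 2.25 (SE 0.09; limma, adjusted p = 8e-11). THEM6, a thioesterase superfamily member of block 2, was 1.61 (SE 0.08) higher in KMS-34 (limma, adjusted p = 6.4e-10).

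Block 1, nearest to MYC, had 2 members higher, PHF20L1 (0.67) and EFR3A (0.28), and 4 lower, CYRIB, ASAP1, GSDMC and SLA. Of the 6 measured genes listed for the MYC-proximal stretch, 0 were higher and 3 lower: GSDMC (-0.61, SE 0.13), a gasdermin, ASAP1, which activates the GTPase activity of ARF proteins, and CYRIB (-0.29, SE 0.06), a RAC1-binding regulator of actin. PVT1, the long non-coding RNA next to MYC, was at -0.26, 0.03 and 0.01 in KMS-11 and -0.26, -0.01 and -0.08 in KMS-11/Cfz, against -0.05, -0.32 and 0.04 in KMS-34 and -0.11, 0.04 and -0.22 in KMS-34/Cfz. All 4 groups overlapped. SLA, an adaptor that dampens antigen receptor signalling, was the lowest member: 0.79, 0.81 and 0.71 in KMS-11 and 0.42, 0.59 and 0.57 in KMS-11/Cfz, against -0.06, -0.35 and -0.10 in KMS-34 and 0.02, -0.24 and -0.33 in KMS-34/Cfz. The lines did not overlap, and KMS-34 was below KMS-11 by a difference of -0.94 (SE 0.10; limma, adjusted p = 2.1e-06). MINCR, a long non-coding RNA (-0.62, SE 0.10), and MROH1 (-0.75, SE 0.06) were lower although they lie in blocks 3 and 4.

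Of the called members with several probe sets, 29 of 34 had all of them on one side. CYRIB, EFR3A, JRK, MINCR and FBXL6 had probe sets on both sides. SLC45A4 was not called, and its 2 probe sets differed by 0.65 (limma, adjusted p = 0.0016) and -0.49 (adjusted p = 0.00037).

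The position limit fell between MYC and PVT1. Just inside it, PVT1 and LINC02912 differed between the parents by -0.04 and 0.06, and just outside it CASC11 and MYC by -0.02 and -0.08. In KMS-34/Cfz against KMS-34 the same 4 genes had differences of 0.02, -0.07, -0.10 and -0.33, and in KMS-11/Cfz against KMS-11 of -0.05, 0.12, -0.07 and -0.05. The genes left out by the rule, NDRG1, RPL8 and CYC1, had parental differences of -1.06, 0.33 and 0.62.

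**Figure D3:**
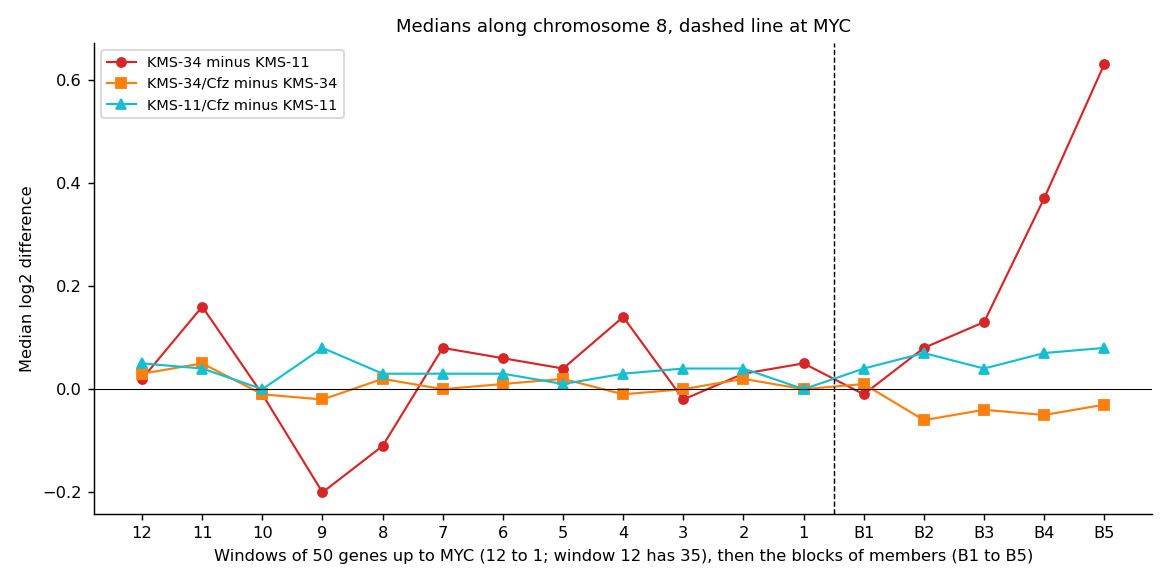
Median log2 difference (vertical axis) along chromosome 8 in windows of up to 50 genes before MYC (12 to 1) and in the 5 blocks of members beyond it (B1 to B5), for the 3 comparisons (lines). KMS-34 minus KMS-11 reaches 0.37 and 0.63 in the last 2 blocks, against at most 0.16 in the windows before MYC.

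In KMS-34/Cfz against KMS-34, which shares no array with the comparison that chose the region, few distal 8q24 genes differed. Of the 127 members, 2 were called higher (1.57%), beside 5.4% of all genes, and 4 were called lower (3.15%), beside 4.69% of all genes. The other 121 were not called. The median difference was -0.03, against -0.01 over all genes and 0.01 over chromosome 8 up to MYC. Above 0 were 48 members (37.8%) and below it 79, where 46.4% of all genes and 53.3% of chromosome 8 up to MYC were above 0. Block medians were 0.01, -0.06, -0.04, -0.05 and -0.03, with no rise towards the chromosome end. With quantile normalization the calls were 2 higher and 8 lower, beside 5.48% and 5.18% of all genes.

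KHDRBS3, an RNA-binding protein that regulates splicing, rose most. It stood at -0.45, -0.39 and -0.46 in KMS-34 and at 0.21, 0.41 and 0.80 in KMS-34/Cfz, with no overlap and a wide spread among the resistant arrays. The difference was 0.91 (SE 0.11), 1.88-fold (limma, adjusted p = 0.00018). In KMS-11 it stood at -0.08, -0.20 and -0.19 and in KMS-11/Cfz at -0.12, -0.05 and -0.17, which overlapped.

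CYRIB rose from -0.03, 0.04 and -0.16 in KMS-34 to 0.24, 0.34 and 0.27 in KMS-34/Cfz. The groups did not overlap, and the difference was 0.33 (SE 0.06), 1.26-fold (limma, adjusted p = 0.0037). One of its 3 probe sets carried most of it, at 0.65 (adjusted p = 0.0012), and the others were at 0.11 and 0.24. In a fit of the 2 KMS-34 groups alone the adjusted p of CYRIB was 0.065.

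LY6D fell from 0.69, 0.70 and 0.86 in KMS-34 to 0.07, 0.04 and 0.21 in KMS-34/Cfz, with no overlap. The difference was -0.64 (SE 0.07; limma, adjusted p = 0.00011). Its resistant values still lay above those of KMS-11, at -0.23, -0.35 and -0.25, and of KMS-11/Cfz, at -0.16, -0.04 and -0.22.

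GFUS fell from 0.33, 0.39 and 0.45 in KMS-34 to -0.28, -0.10 and -0.03 in KMS-34/Cfz, a difference of -0.52 (SE 0.07; limma, adjusted p = 0.00028). The resistant arrays overlapped those of KMS-11, at -0.05, 0.01 and -0.06. GRINA, a membrane protein linked to calcium balance and cell survival, fell from 0.05, 0.31 and 0.39 to -0.22, -0.18 and -0.12, a difference of -0.42 (SE 0.08; limma, adjusted p = 0.0037). Its KMS-34 replicate 1 was nearest to the resistant arrays, and the groups did not overlap.

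C8orf82 fell from 1.15, 1.30 and 1.29 in KMS-34 to 0.70, 0.89 and 1.04 in KMS-34/Cfz. The difference was -0.37 (SE 0.09; limma, adjusted p = 0.019), and both groups lay well above KMS-11, at -0.97, -0.90 and -1.05. Its call was lost without KMS-34/Cfz replicate 2 (adjusted p = 0.054), KMS-34 replicate 2 (0.062) or KMS-34 replicate 3 (0.068), and in the fit of the 2 groups alone (0.08).

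Without KMS-34/Cfz replicate 1, the array that stood apart, 3 members were called higher and 5 lower, beside 8.62% and 5.08% of all genes. When KMS-11 replicate 3 and KMS-34 replicate 1 were omitted along with it, 2 were higher and 4 lower, beside 6.11% and 4.64% of all genes. MYC itself, which is no member, was lower in KMS-34/Cfz, with a difference of -0.33 (SE 0.07; limma, adjusted p = 0.0074).

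**Figure D4:**
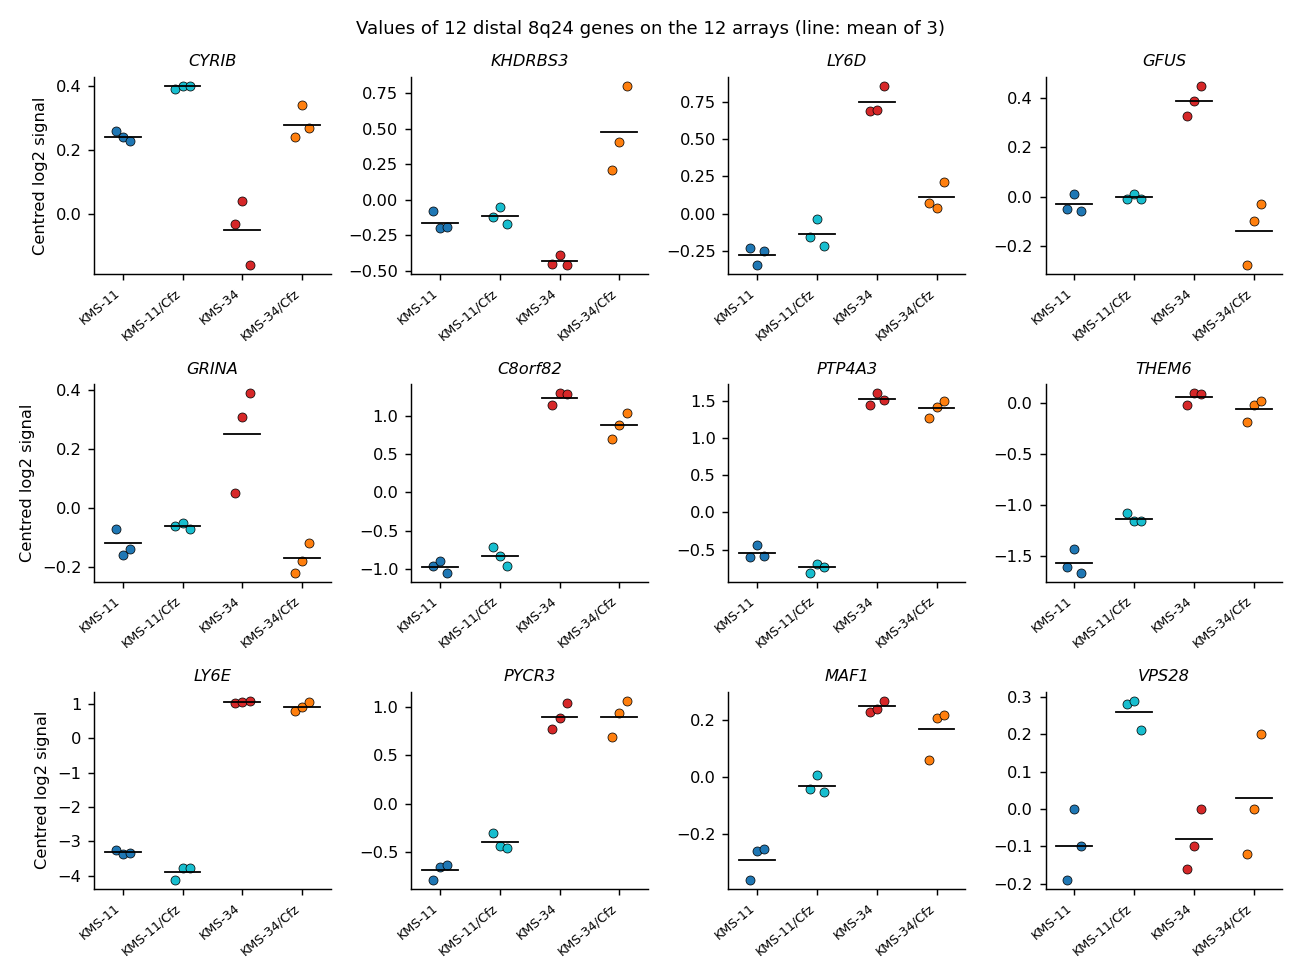
Centred log2 signal (vertical axes, each with its own scale) of 12 members on the 12 arrays, by group (points are arrays, lines are means of 3). KHDRBS3 and CYRIB were higher and LY6D, GFUS, GRINA and C8orf82 lower in KMS-34/Cfz than in KMS-34, and LY6E, at -3.32 in KMS-11 and 1.06 in KMS-34 on average, parted the lines furthest.

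In KMS-11/Cfz against KMS-11, the comparison that chose the region, differences were small and mostly above 0. The median over the 127 members was 0.07, beside 0.00 over all genes and 0.03 over chromosome 8 up to MYC. Above 0 lay 91 members (71.7%) and below it 36, where 51.0% of all genes and 60.5% of chromosome 8 up to MYC were above 0. The median of all chromosome 8 genes was 0.04, the highest of the 22 autosomes, of which chromosome 15 was lowest at -0.08. The block medians were 0.04, 0.07, 0.04, 0.07 and 0.08. The differences ran from -0.58 for LY6E to 0.43 for THEM6. These values are descriptions of how the region came to be selected.

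Because the region was chosen on these values, the number past the threshold is a description and no test of the members. It was 3 higher (2.36%), THEM6, MAF1 and VPS28, beside 1.63% of all genes, and 1 lower (0.787%), LY6E, beside 1.94% of all genes. The number higher changed when single arrays were left out, as did the share of all genes called higher. The count was 1 without any one of KMS-11/Cfz replicates 1, 2 and 3 or KMS-11 replicates 1 and 3, beside 0.713% to 0.895% of all genes. Without KMS-34/Cfz replicate 1 it was 8 higher and 2 lower, beside 2.49% and 2.91% of all genes. Without KMS-34/Cfz replicate 3 it was 5 higher, beside 1.84%.

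THEM6 stood at -1.61, -1.43 and -1.66 in KMS-11 and at -1.08, -1.16 and -1.16 in KMS-11/Cfz, a difference of 0.43 (SE 0.08). VPS28 stood at -0.19, 0.00 and -0.10 in KMS-11 and at 0.28, 0.29 and 0.21 in KMS-11/Cfz, a difference of 0.35 (SE 0.08). In both, the groups did not overlap. MAF1 stood at -0.36, -0.26 and -0.25 in KMS-11 and at -0.04, 0.01 and -0.05 in KMS-11/Cfz, and PPP1R16A at -0.92, -0.55 and -0.86 and at -0.40, -0.33 and -0.40, again without overlap. The others among the 10 highest were PYCR3 and SHARPIN (both 0.29), GPAA1, GSDMC and GSDMD (each 0.26), GSDMD being the gasdermin that forms pores in pyroptosis, and ZNF251 (0.24). Of these 10, GSDMC lies near MYC and the rest in blocks 2 to 5.

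At the other end, LY6E had a difference of -0.58 (SE 0.09), so that the derivative lay even further below KMS-34 than its parent did. GML followed at -0.28 (SE 0.21), with an SE close to the difference, and GPIHBP1, SLA and SLC33A2 were each at -0.24. HSF1 (0.11, SE 0.11), RECQL4 (0.23, SE 0.09), TONSL (0.09, SE 0.09), PUF60 (0.15, SE 0.08) and EEF1D (-0.02, SE 0.10) lay between these ends. The Spearman correlation of order and difference over the 127 genes was 0.12, and in KMS-34/Cfz against KMS-34 it was -0.20, again as descriptions across genes.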

How the data were processed

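Total RNA was hybridised to Affymetrix HG-U133 Plus 2.0 arrays. The deposited log2 values were made by the authors with RMA (version not given in the sources used here) and are centred for each probe set (99.99% of the 54613 probe sets have 3 to 9 of 12 values below 0), a step no source describes. The labels and the study's methods give different serum shares. Of the probe sets, 41091 named 1 gene, 1801 several and 11721 none. Probe sets naming 1 gene were averaged into 19775 genes, and 64 members have 1 probe set and 63 several. No filter on low values was possible, so all members were tested.

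The 12 arrays entered 1 limma 3.58.1 model (R 4.3.3) with a mean per group. Tests were two-sided with Benjamini-Hochberg adjustment over all genes at 0.05, and the script was tested on simulated data. Alternatives were other samples in the fit, a replicate block, other scalings, array weights, other gene values, a stricter threshold, arrays left out and, added later, resistant cells in place of parents. Tables and figures used Python 3.11.15 with pandas 2.3.3 and matplotlib 3.10.9. The number of arrays limits the precision.

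The members and lists were chosen with earlier results of these data known. Named were the 10 highest and 5 lowest members in KMS-11/Cfz, up to 8 called each way in KMS-34/Cfz, up to 6 each way between the parents, genes of known role, those at the ends of blocks and those at the position limit. Other members of the role lists are named as examples picked with their values in view. The lists hold 92 members, and 35 are in none. No sequences are shown.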

Additional observations from a re-analysis of the deposited data

Results flagged for a closer look

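For 6 members, all KMS-11/Cfz arrays lay above all KMS-11 arrays while all KMS-34/Cfz arrays lay below all KMS-34 arrays. The share of all genes with this pattern was not counted, so the number is no result about the members. The log2 differences from the parent, first in KMS-11/Cfz and then in KMS-34/Cfz, were 0.26 and -0.08 for MAF1, 0.26 and -0.19 for GPAA1, 0.14 and -0.64 for LY6D, 0.11 and -0.27 for DGAT1, 0.21 and -0.15 for KCNK9, and 0.14 and -0.13 for ZFP41. Of the KMS-34/Cfz differences, LY6D passed the threshold, and MAF1 (limma, adjusted p = 0.53), GPAA1 (0.18), DGAT1 (0.097), KCNK9 (0.25) and ZFP41 (0.34) did not. The difference between the lines was not tested, because the KMS-11/Cfz values chose the region.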

How the results depend on the processing

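Under 21 alternatives no difference of a named and called member changed sign. Counts of members called between the parents stayed at 42 to 58 higher and 7 to 12 lower, and were 45 and 11 in resistant cells. The lowest came where 108 members remained without probe sets that can match several transcripts. There 19.1% of all genes were higher and 17.9% lower, and in the other fits at 0.05 at most 23.5% and 21.9%. In KMS-34/Cfz, the counts (2 higher, 4 lower) were 1 higher with the 2 groups alone, beside 2.2% of all genes. They were 4 higher with array weights, beside 8.75%, and 8 lower with quantile normalization, beside 5.18%. In KMS-11/Cfz, which chose the region, the counts are descriptions (3 higher, 1 lower, beside 322 and 384 of all genes). They were 10 and 3 with the 2 groups alone (all genes 649 and 725) and 16 and 5 with array weights (all genes 913 and 1092). With quantile normalization or 3 arrays left out together, 5 were higher (all genes 481 and 357 higher). At an adjusted p under 0.01, or without those probe sets (204 of 17098 genes higher), 1 was higher. The share of all genes under 0.01 was not counted in any comparison. Leaving out 1 array gave 1 to 8 higher and 1 to 2 lower there, beside 0.713% to 2.49% and 0.946% to 2.91% of all genes. The median difference ranged from -0.05 to -0.01 in KMS-34/Cfz and from 0.10 to 0.14 between the parents with 1 array left out, where it was 0.10 with quantile normalization, 0.16 with the probe set of largest variance and 0.05 in resistant cells. The cause was not tested. Whether replicate numbers pair the arrays was not settled. In KMS-34/Cfz and KMS-34, correlations of same-numbered deviations were 0.56, 0.37 and 0.05, and those of differently numbered ones ran from -0.54 to 0.44. With the replicate block the counts were 2 and 4 in KMS-34/Cfz, beside 5.6% and 4.99% of all genes. Between the parents they were 55 and 9, beside 22.1% and 20.7%, and in KMS-11/Cfz 4 and 1, beside 1.68% and 1.96%. Signal over background could not be assessed in centred values.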
